A study of Homo sapiens with 12 samples.

Results

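LmnB1_16 and LmnB1_6 are clonal lines of hTERT RPE-1 cells, a telomerase-immortalised human line from the retinal pigment epithelium, and both carry the same construct, mCherry fused to lamin B1. They were set against each other with the 3 libraries of each clone, chosen by the clone name in the sample titles, which is 6 of the 12 mRNA libraries of the study. The other 6 libraries came from mCherry_3 and mCherry_4, clonal lines of the same cells that overexpress the red fluorescent protein mCherry alone. All 12 cultures received 0.05 ug/mL doxycycline for 24 hours and grew in medium with hygromycin B. The 3 libraries of a clone are labelled as biological replicates, so each group is 1 clone. The edgeR p-values rest on the spread between libraries within a clone, estimated over all 12 libraries, and not on a spread between clones. A difference between LmnB1_16 and LmnB1_6 is a difference between these lines, and the labels give no feature other than the clone that separates them. The promoter that drives the construct is not stated by the sources used.

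Lamin B1 is a filament protein of the nuclear lamina, the meshwork under the inner nuclear membrane that anchors silent chromatin. A clonal line is grown from a single cell, so a state that cell had when it was picked, such as a silenced gene, can be passed to the whole line. Cells of the retinal pigment epithelium nourish the photoreceptors, recycle retinoids and lay down part of the basement membrane beneath them. Of 12 markers of this epithelium 6 were under 1 CPM in both lamin B1 clones, and RPE65, TTR and TYR were at 0 CPM in all 4 clones. RDH5 was at 12.9 and 11.3 CPM in mCherry_3 and mCherry_4, 7.60 in LmnB1_6 and 9.36 in LmnB1_16, and MITF and OTX2 are described below. The simple epithelial keratins KRT8 and KRT18 were at 324 and 291 CPM in LmnB1_6 and 372 and 438 in LmnB1_16, while EPCAM and CDH1 were under 0.1 CPM in each clone. Among leukocyte markers PTPRC was at 0.2395 and 0.216 CPM and CD3E at 0, and 10 of the 12 markers were under 1 CPM in both lamin B1 clones.

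The levels below are CPM, counts scaled to a common library total (counts per M) with TMM factors, and the values of a clone are given for replicates 1, 2 and 3. The 6 libraries held 20.6 to 29.5 M estimated counts, 14146 to 14855 genes with at least 10 counts, and 2.14% to 2.57% mitochondrial transcripts. LMNB1 (ENSG00000113368.12, plus strand of chromosome 5, 126776623 to 126837020, GRCh38), the gene of the construct, was at 3985, 4134 and 3808 CPM in LmnB1_6 and 3330.4, 3666 and 3126 in LmnB1_16. Every LmnB1_16 library was below every LmnB1_6 library, and both clones were far above the mCherry clones at 84.98 and 161. The gap was 1.18-fold (log2 fold change -0.24 ± 0.07 SE, adjusted p = 0.0117 by edgeR), and it was no longer called without LmnB1_6 replicate 2 (edgeR adjusted p = 0.0569), without LmnB1_16 replicate 3 (edgeR adjusted p = 0.0619) or from the deposited TPM (limma adjusted p = 0.119). Gene-level counts do not separate the construct from the endogenous gene. LMNA, which encodes the A-type lamins, was at 1139, 1109.6 and 1055 in LmnB1_6 and 932, 979.8 and 984 in LmnB1_16 (log2 fold change -0.19 ± 0.06 SE, adjusted p = 0.0232 by edgeR), a call that was lost without LmnB1_6 replicate 1 or 2 or LmnB1_16 replicate 1 (edgeR adjusted p = 0.0893, 0.0674 and 0.0873) and from TPM (limma adjusted p = 0.300 and 0.298). LMNB2, the other B-type lamin, and LBR, the lamin B receptor, had log2 fold changes of -0.14 and 0.02 and were not called (edgeR adjusted p = 0.0741 and 0.810). LMNB2 was called by DESeq2 (adjusted p = 0.0416) and, by edgeR, without LmnB1_16 replicate 3 (adjusted p = 0.04996). All log2 fold changes are LmnB1_16 over LmnB1_6, so a positive value is higher in LmnB1_16.

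Despite the shared construct the lines differed widely. Of 15388 genes tested, 5289 (34.4%) were called at an adjusted p under 0.05 by edgeR's quasi-likelihood test with Benjamini-Hochberg adjustment. Of the tested genes, 2734 (17.8%) were higher in LmnB1_16 and 2555 (16.6%) higher in LmnB1_6. The shares 17.8% and 16.6% are the background for every list count below. Members of a list could pass the expression filter through 1 clone alone, so the list counts by direction are descriptions and no tests. The libraries of the clones did not overlap for 5135 of the called genes. A low p-value makes such a gap likely, so this count adds no separate evidence. The same holds where called genes named below are said not to overlap. A difference of at least 2-fold was called for 1627 genes (10.6%), 912 of them higher in LmnB1_16, and a difference of at least 10-fold for 432, 248 of them higher in LmnB1_16. The mCherry clones, which also share a construct, differed in 5752 genes (37.4%), but by 2-fold or more in 1066 and by 10-fold or more in 182. Large differences were most frequent among genes of low level: 20.6% of the genes under a mean of 1 CPM and 20.1% of those from 1 to 10 CPM were called and 2-fold apart, against 5.08% from 10 to 100 CPM and 3.59% above. A gene of low mean could pass the expression filter through its level in 1 clone alone, so these shares are descriptions and no test.

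For the genes that differed most, the mCherry levels were set beside those of each lamin B1 clone. For 1037 of the 1627 genes that differed 2-fold, both mCherry means lay nearer to LmnB1_16 on the scale of log2(CPM + 0.5), and for 188 both lay nearer to LmnB1_6. The mCherry clones were divided for the other 402 genes. Among the 432 genes at 10-fold the corresponding counts were 286, 50 and 96. These positions are descriptions of genes chosen for their difference between the lamin B1 clones, with no test. The shares over all tested genes are not given.

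**Figure D1:**
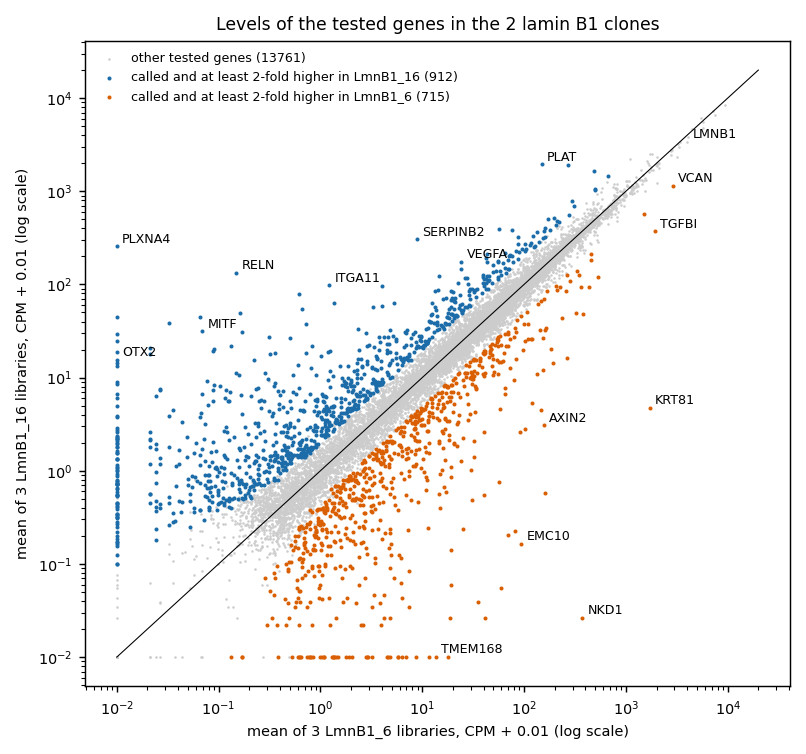
Mean level of each tested gene in the 3 LmnB1_6 libraries (x axis) and the 3 LmnB1_16 libraries (y axis), both in CPM + 0.01 on log scales, with the line of equal levels. Coloured points are the 912 genes called and at least 2-fold higher in LmnB1_16 and the 715 in LmnB1_6. The rows of points at the left and lower edges are genes with 0 counts in 1 clone, such as PLXNA4 and TMEM168, while LMNB1 lies close to the line.

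The clearest contrasts were genes present in every library of one clone and at or near 0 in the other. With a mean under 0.1 CPM taken as off and at least 1 CPM in every library as on, 75 genes were on in LmnB1_16 and off in LmnB1_6, and 53 were on in LmnB1_6 and off in LmnB1_16. By the same rule 26 genes were on in mCherry_3 and off in mCherry_4, and 26 the reverse. Of the 75 genes off in LmnB1_6, 46 were at 1 CPM or more in both mCherry clones and 6 were off in both. Of the 53 genes off in LmnB1_16, 5 were at 1 CPM or more in both mCherry clones and 13 were off in both. The off clone had 0 counts for 33 of the 75 genes and 19 of the 53. With a mean under 0.05 CPM as off and 5 CPM as on, the counts were 17 and 15. In bulk RNA, fewer cells that use a gene and less RNA per cell cannot be told apart.

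The promoter windows of 6 genes of this kind are printed to let their base composition be compared. Each is the stretch of 250 bases before the start site, 5′ to 3′ on the gene's strand, from RefSeq on GRCh38.p14, with every CG dinucleotide in capitals. The first 3 genes were on in LmnB1_16, and they are PLXNA4 (chr7:132576471-132576720, minus strand, 23 CG), XYLT1 (chr16:17470961-17471210, minus strand, 15 CG) and COL4A5 (chrX:108439588-108439837, plus strand, 8 CG).
PLXNA4: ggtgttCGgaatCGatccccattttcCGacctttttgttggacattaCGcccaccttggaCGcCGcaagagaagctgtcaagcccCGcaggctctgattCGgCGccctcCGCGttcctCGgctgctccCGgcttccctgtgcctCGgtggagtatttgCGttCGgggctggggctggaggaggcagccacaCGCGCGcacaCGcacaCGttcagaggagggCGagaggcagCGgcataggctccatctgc
XYLT1: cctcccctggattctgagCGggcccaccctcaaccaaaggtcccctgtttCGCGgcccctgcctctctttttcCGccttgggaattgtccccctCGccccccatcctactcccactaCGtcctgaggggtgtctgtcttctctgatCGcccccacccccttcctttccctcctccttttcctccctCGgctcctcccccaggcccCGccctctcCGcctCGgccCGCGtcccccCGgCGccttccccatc
COL4A5: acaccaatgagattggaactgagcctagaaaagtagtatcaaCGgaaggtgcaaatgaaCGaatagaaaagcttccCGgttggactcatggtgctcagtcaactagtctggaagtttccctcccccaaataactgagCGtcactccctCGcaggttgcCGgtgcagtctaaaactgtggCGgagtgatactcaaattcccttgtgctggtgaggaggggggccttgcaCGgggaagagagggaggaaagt
The other 3 were on in LmnB1_6, and they are PDZRN3 (chr3:73624942-73625191, minus strand, 19 CG), ALPK2 (chr18:58629092-58629341, minus strand, 7 CG) and FLG (chr1:152325240-152325489, minus strand, 1 CG).
PDZRN3: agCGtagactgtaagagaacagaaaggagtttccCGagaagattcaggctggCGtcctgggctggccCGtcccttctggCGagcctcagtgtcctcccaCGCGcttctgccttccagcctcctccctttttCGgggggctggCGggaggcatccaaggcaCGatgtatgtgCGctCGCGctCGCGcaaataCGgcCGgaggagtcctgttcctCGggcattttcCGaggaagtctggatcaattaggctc
ALPK2: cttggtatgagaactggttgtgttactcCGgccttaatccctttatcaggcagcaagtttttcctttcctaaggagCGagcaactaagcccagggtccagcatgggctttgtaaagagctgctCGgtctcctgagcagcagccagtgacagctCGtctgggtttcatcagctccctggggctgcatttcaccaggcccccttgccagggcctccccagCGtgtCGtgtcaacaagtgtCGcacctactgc
FLG: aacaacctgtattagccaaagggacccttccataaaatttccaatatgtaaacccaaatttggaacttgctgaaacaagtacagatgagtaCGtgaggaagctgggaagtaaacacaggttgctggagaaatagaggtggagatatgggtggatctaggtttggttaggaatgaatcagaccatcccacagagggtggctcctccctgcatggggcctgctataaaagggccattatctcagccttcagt

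The RefSeq start of PLXNA4 lies inside the span GENCODE gives the gene, and which start the cells used was not tested. Over the protein-coding genes on in LmnB1_16 and off in LmnB1_6, of which 61 of 72 matched the RefSeq table, the median was 15 CG in 250 bases. Over those on in LmnB1_6 and off in LmnB1_16, of which 26 of 46 matched, it was 19. The median was 21 over the 10324 matched protein-coding genes tested, and 12 over the 724 with a mean under 1 CPM. At least 20 CG were found in 41.0% and 42.3% of the windows of the switched genes, 55.9% of all windows and 32.9% of those of low level. The letters TATAAA, searched on both strands with overlaps allowed, occurred in 6.56% of the windows of genes on in LmnB1_16 and 19.23% of those of genes on in LmnB1_6. They occurred in 5.16% of all windows and 8.98% of those of low level. The share for LmnB1_6 rests on only 26 windows, and the difference was not tested. FLG held 1 such match, and the other 5 printed windows held none.

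PLXNA4 (ENSG00000221866.9, minus strand of chromosome 7, 132123332 to 132648688), which encodes a plexin receptor for semaphorins, had 0 counts in the LmnB1_6 libraries and 242, 313 and 213 CPM in LmnB1_16. It was at least 6268-fold higher in LmnB1_16, taking 3 counts over the 3 LmnB1_6 libraries as the limit that 0 counts allow (edgeR adjusted p = 5.86e-12). The mCherry clones had 0 and 0.0282 CPM, so among the 4 clones LmnB1_16 alone had it above 0.1 CPM. The next genes followed another pattern, on in the 3 other clones. COL4A5, a chain of basement membrane collagen, had 0 counts in LmnB1_6 and 45.1, 41.2 and 47.2 CPM in LmnB1_16 (at least 1091-fold, edgeR adjusted p = 8.43e-14), against 68.1 and 37.5 in mCherry_3 and mCherry_4. XYLT1, a xylosyltransferase that starts the sugar chains of proteoglycans, was at 0, 0 and 0.168 CPM in LmnB1_6 and 44.2, 46.2 and 44.7 in LmnB1_16. DAPK1, a death-associated kinase, had 2 counts over the LmnB1_6 libraries and 38.4, 41.4 and 35.2 CPM in LmnB1_16. PGM5, a phosphoglucomutase-like protein of adherens junctions, had 0 counts in LmnB1_6 and 31.9, 29.5 and 27.6 CPM in LmnB1_16 (at least 728-fold). In both mCherry clones XYLT1, DAPK1 and PGM5 stood between 34.7 and 70.5 CPM.

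Further genes were at or near 0 in LmnB1_6. DMD, the dystrophin gene, had 0 counts there and 24.1, 25.4 and 23.9 CPM in LmnB1_16 (at least 600-fold, edgeR adjusted p = 1.01e-12). SLC1A1, a glutamate transporter, had 0 counts and 18.9, 19.8 and 17.9 CPM (at least 462-fold), NRK, a kinase of the X chromosome, 0 counts and 15.8, 14.6 and 12.9 CPM (at least 354-fold), and ADAMTSL3, a secreted ADAMTS-like protein, 0 counts and 13.6, 13.3 and 13.3 CPM (at least 328-fold). All 4 were above 5 CPM in both mCherry clones. RELN, which encodes the secreted glycoprotein reelin, was at 0.0856, 0.196 and 0.134 CPM in LmnB1_6 and 130.1, 146 and 126 in LmnB1_16 (log2 fold change 9.89 ± 0.15 SE, adjusted p = 8.71e-17 by edgeR), with 77.9 and 109.9 in mCherry_3 and mCherry_4. ANPEP, the membrane aminopeptidase CD13, was at 0.128, 0.196 and 0.134 against 48.3, 45.7 and 53.2 CPM (log2 fold change 8.31 ± 0.17 SE, adjusted p = 1.95e-15 by edgeR). EPHB6 and PPP1R9A, an ephrin receptor and a neurabin on chromosome 7, had 1 count each over the LmnB1_6 libraries and means of 17.9 and 20.996 CPM in LmnB1_16.

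In the other direction NKD1 (ENSG00000140807.7, plus strand of chromosome 16, 50548330 to 50649249), a negative feedback regulator of Wnt signalling, was at 402, 329 and 385 CPM in LmnB1_6 and had 1 count over the LmnB1_16 libraries (edgeR adjusted p = 1.95e-15). It was also at 0 in mCherry_3 and at 6.73 CPM in mCherry_4, so its level in LmnB1_6 was the highest of the 4 clones. PDZRN3, a ubiquitin ligase, was at 66.4, 55.7 and 57.9 CPM in LmnB1_6 with 3 counts in LmnB1_16, and PALM, the membrane protein paralemmin, at 41.4, 41.5 and 42.5 CPM with 1 count. ALPK2, an alpha kinase, was at 33.6, 35.9 and 35.3 CPM with 2 counts, KCNG1, a potassium channel subunit, at 18.1, 15.9 and 21.7 with 1 count, and FLG, the epidermal protein filaggrin, at 17.2, 17.4 and 22.8 with 4 counts. PDZRN3, KCNG1 and FLG were under 0.5 CPM in both mCherry clones, and ALPK2 was at 10.1 and 2.97. FNDC10 and HSD17B2, a fibronectin domain protein and a steroid dehydrogenase, had 0 counts in LmnB1_16 and means of 17.98 and 11.6 CPM in LmnB1_6 (at least 409-fold and at least 264-fold).

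TMEM168 (ENSG00000146802.13, minus strand of chromosome 7, 112762382 to 112790592), a transmembrane protein gene, was present at like levels in 3 clones and absent from LmnB1_16. It was at 13.3, 13.98 and 13.4 CPM in LmnB1_6 and at means of 14.9 and 12.7 in the mCherry clones, and it had 0 counts in the 3 LmnB1_16 libraries (at least 308-fold higher in LmnB1_6, edgeR adjusted p = 5.33e-12). EMC10, a subunit of the complex that inserts membrane proteins into the endoplasmic reticulum, divided the clones in pairs: it was at 95.3, 94.2 and 92.9 CPM in LmnB1_6 and 87.2 in mCherry_4, and at 0.243, 0 and 0.2198 in LmnB1_16 and 0.159 in mCherry_3. Other genes were far lower in LmnB1_16 but detected there. KRT81, a hair keratin whose family shares sequence and whose count is uncertain, was at 1732, 1652 and 1754 CPM in LmnB1_6 and 5.25, 2.61 and 6.34 in LmnB1_16 (log2 fold change -8.46 ± 0.19 SE, adjusted p = 5.17e-15 by edgeR), with 5.83 and 37.9 in mCherry_3 and mCherry_4. NXN, the redox protein nucleoredoxin, was at 149, 166 and 172 against 0.584, 0.541 and 0.586 (log2 fold change -8.14 ± 0.18 SE, adjusted p = 3.56e-15 by edgeR), and DCLK1, a doublecortin-like kinase, at 83.5, 78.99 and 80.01 against 0.292, 0.246 and 0.1099 (log2 fold change -8.58 ± 0.20 SE, adjusted p = 5.42e-15 by edgeR). RBM20, a splicing factor, had means of 19.02 and 0.1303 CPM. NXN and RBM20 were under 2 CPM in both mCherry clones as well.

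**Figure D2:**
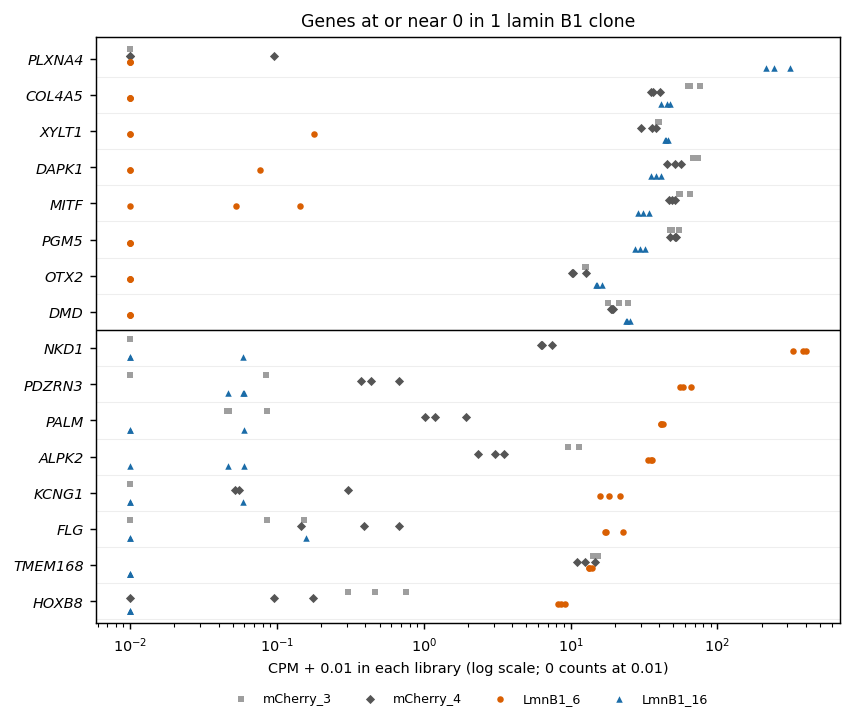
Level in each of the 12 libraries (x axis, CPM + 0.01 on a log scale, 0 counts at 0.01) of 16 genes at or near 0 in 1 lamin B1 clone, with 1 row per gene and 1 marker per library in the colour of its clone. In the upper 8 rows LmnB1_6 is at the left edge, and for 7 of them the mCherry clones stand with LmnB1_16. In the lower 8 rows LmnB1_16 is at or near the left edge, and for TMEM168 the 3 other clones stand together.

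The pigment epithelium list separated the clones in its transcription factors. MITF (ENSG00000187098.17, plus strand of chromosome 3, 69739435 to 69968337), the master regulator of pigment cells, was at 0.0428, 0 and 0.134 CPM in LmnB1_6 and 28.7, 34.1 and 31.03 in LmnB1_16 (log2 fold change 8.74 ± 0.23 SE, adjusted p = 3.55e-14 by edgeR). OTX2 (ENSG00000165588.18, minus strand of chromosome 14, 56799905 to 56810479), a homeobox factor needed for this epithelium, had 0 counts in LmnB1_6 and 15.1, 16.4 and 14.9 CPM in LmnB1_16 (at least 380-fold, edgeR adjusted p = 2.17e-12). Both factors were on in the mCherry clones, MITF at 58.6 and 48.97 and OTX2 at 12.6 and 11.1 CPM. LmnB1_6 was the 1 clone with both at or near 0. Other members went the opposite way: STRA6, the receptor for retinol binding protein, was at 19.04, 12.2 and 15.3 CPM in LmnB1_6 and 1.65, 0.639 and 0.696 in LmnB1_16 (log2 fold change -3.98 ± 0.28 SE, adjusted p = 8.44e-09 by edgeR), and SERPINF1, the secreted factor PEDF, at 1.37, 1.42 and 1.51 and 0.584, 0.541 and 0.659 (log2 fold change -1.26 ± 0.35 SE, adjusted p = 0.0106 by edgeR). Of 16 members tested, of 26 listed, 7 were higher in LmnB1_16 and 5 in LmnB1_6 (median 0.30), against a median of 0.0014 over all tested genes. The summed level of the 12 pigment epithelium markers was 11.8 to 12.3 CPM in LmnB1_6 and 56.8 to 60.8 in LmnB1_16, where MITF, OTX2 and RDH5 made up most of it.

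HOX genes set position along the body axis, and the head tissues that form the eye normally lack them. Of 39 listed HOX genes 8 passed the filter, all of the HOXB cluster on chromosome 17, and 7 of them were called, each higher in LmnB1_6 (16.6% of all genes were called in that direction). A gene could pass the filter through its level in 1 clone alone, so genes low in LmnB1_16 could enter through LmnB1_6. The count of calls by direction is therefore a description and no test. HOXB9 was at 67.8, 65.9 and 72.995 CPM in LmnB1_6 and 0.146, 0.147 and 0.293 in LmnB1_16 (log2 fold change -8.36 ± 0.21 SE, adjusted p = 1.43e-14 by edgeR), and HOXB3 at 107, 102 and 99.9 against 2.92, 2.901 and 2.53 (log2 fold change -5.22 ± 0.11 SE, adjusted p = 1.95e-15 by edgeR). HOXB6 was at 42.1, 35.3 and 42.5 against 0.633, 0.5899 and 0.403 (log2 fold change -6.22 ± 0.17 SE, adjusted p = 3.92e-14 by edgeR). For each of these 3 the LmnB1_6 libraries lay above all others of the series. HOXB8 was at 8.56, 8.19 and 9.095 CPM in LmnB1_6 and had 0 counts in LmnB1_16 (at least 196-fold, edgeR adjusted p = 1.30e-08), and HOXB5 was at 6.46, 6.33 and 9.13 against 0.292, 0.147 and 0.2198. HOXB7 and HOXB2 had means of 1.74 and 1.03 CPM in LmnB1_6 and 0.2 and 0.0324 in LmnB1_16. HOXB4, in the middle of the cluster, was at 5.26, 7.899 and 7.82 in LmnB1_6 and 5.11, 5.06 and 5.68 in LmnB1_16 and was not called (log2 fold change -0.40 ± 0.22 SE, adjusted p = 0.186 by edgeR). In mCherry_3 and mCherry_4 HOXB3 was at 5.83 and 1.804, HOXB4 at 5.58 and 0.113, and HOXB9 at 7.72 and 1.46 CPM. Genes of the cluster overlap each other and antisense transcripts, and the strand setting of the libraries is not stated by the sources used, so the split of reads between them is uncertain.

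Wnt ligands act through frizzled receptors and beta-catenin, which turns on feedback inhibitors of the pathway. Of 30 Wnt genes tested, of 43 listed, 8 were higher in LmnB1_16 and 11 in LmnB1_6 (median -0.07), beside 17.8% and 16.6% of all genes. NKD1, AXIN2, NOTUM and DKK2 had their highest mean of the 4 clones in LmnB1_6. AXIN2, a scaffold of the complex that destroys beta-catenin, was at 166, 154 and 148 CPM in LmnB1_6 and 2.97, 2.56 and 3.7004 in LmnB1_16 (log2 fold change -5.64 ± 0.15 SE, adjusted p = 4.56e-14 by edgeR), with 2.61 and 3.77 in mCherry_3 and mCherry_4. NOTUM, a secreted enzyme that inactivates Wnt proteins, was at 4.92, 4.71 and 4.87 against 0.146, 0.0983 and 0 (log2 fold change -5.93 ± 0.58 SE, adjusted p = 3.99e-07 by edgeR), and DKK2, a secreted Wnt modulator, at 31.2, 30.2 and 34.4 against 1.41, 1.18 and 1.58 (log2 fold change -4.51 ± 0.18 SE, adjusted p = 5.68e-12 by edgeR). Together with NKD1, these genes did not overlap between the clones. The ligand WNT5A was at 404, 376 and 346 CPM in LmnB1_6 and 41.7, 55.8 and 45.9 in LmnB1_16 (log2 fold change -2.97 ± 0.09 SE, adjusted p = 2.85e-13 by edgeR). Chosen after their values were seen, the nuclear partners LEF1 and TCF7 were at 62.2 and 119.9 CPM in LmnB1_6 and 15.1 and 26.2 in LmnB1_16 (log2 fold changes -2.04 and -2.19). The receptors FZD8 and FZD4 and the R-spondin receptor LGR4, chosen likewise, were higher in LmnB1_16, with log2 fold changes of 2.91, 1.22 and 1.27.

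Bone morphogenetic proteins and TGF-beta are ligands of 1 receptor family, and secreted antagonists hold them in check. BMP2 was at 91.03, 91.6 and 88.9 CPM in LmnB1_6 and 2.58, 1.82 and 3.41 in LmnB1_16 (log2 fold change -5.09 ± 0.14 SE, adjusted p = 4.57e-14 by edgeR), and BMP4 at 133, 151 and 145 against 34.5, 27.7 and 35.03 (log2 fold change -2.14 ± 0.11 SE, adjusted p = 1.99e-10 by edgeR). TGFB2, a TGF-beta ligand, was at 267, 270.3 and 312 against 100.4, 123 and 107 (log2 fold change -1.36 ± 0.13 SE, adjusted p = 4.28e-07 by edgeR). All 3 ligands were higher in every LmnB1_6 library than in any LmnB1_16 library. FST, the activin antagonist follistatin, went the other way, at 3.21, 4.46 and 4.296 CPM in LmnB1_6 and 63.6, 53.2 and 61.002 in LmnB1_16 (log2 fold change 3.89 ± 0.13 SE, adjusted p = 3.93e-13 by edgeR). ENG, an accessory receptor of the family, was at 2.996, 3.97 and 4.83 against 1.36, 1.08 and 1.099. Of 30 ligands, receptors and antagonists tested, of 35 listed, 5 were higher in LmnB1_16 and 14 in LmnB1_6 (median -0.21), beside 17.8% and 16.6% of all genes.

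Genes known as targets of these ligands were called in both directions, and those named here were all higher in LmnB1_6. PMEPA1, a feedback inhibitor of TGF-beta signalling, was at 285, 248 and 266 CPM in LmnB1_6 and 15.3, 17.01 and 16.01 in LmnB1_16 (log2 fold change -4.05 ± 0.10 SE, adjusted p = 1.43e-14 by edgeR). TGFBI, a secreted matrix protein named for its induction by TGF-beta, was at 1998, 1848 and 1922 against 356, 371 and 386 (log2 fold change -2.37 ± 0.06 SE, adjusted p = 3.55e-14 by edgeR). COL1A1, a chain of type I collagen, was at 172, 160.5 and 224 against 19.3, 18.9 and 23.3 (log2 fold change -3.17 ± 0.14 SE, adjusted p = 1.62e-11 by edgeR). In each of the 3 the LmnB1_16 libraries stood at or near the mCherry levels and LmnB1_6 above all other clones. LTBP2, a latent TGF-beta binding protein of the matrix, was at 159.7, 147 and 153 against 26.5, 27.5 and 25.8, and ID2, a target of bone morphogenetic proteins, at 15.5, 15.3 and 13.3 against 2.68, 2.06 and 1.47 (log2 fold changes -2.53 and -2.84). The smooth muscle genes TAGLN and CNN1 were at 408, 419.7 and 464 and 16.2, 18.4 and 19.9 CPM in LmnB1_6 and 85.002, 84.9 and 110.3 and 2.43, 1.47 and 3.33 in LmnB1_16. Of 24 targets tested, of 26 listed, 6 were higher in LmnB1_16 and 12 in LmnB1_6 (median -0.29), beside 17.8% and 16.6% of all genes.

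Genes of antigen presentation were higher in LmnB1_16 almost throughout. Of 19 tested genes of MHC class I and antigen processing, of 20 listed, 18 were higher in LmnB1_16 and 0 in LmnB1_6 (median 0.64), beside 17.8% of all genes called in the same direction. HLA-B, a class I heavy chain, was at 107, 112 and 121 CPM in LmnB1_6 and 269.6, 235 and 289 in LmnB1_16 (log2 fold change 1.22 ± 0.08 SE, adjusted p = 1.74e-09 by edgeR). PSMB9, a subunit of the immunoproteasome, was at 2.48, 2.16 and 3.02 against 13.8, 11.01 and 15.2 (log2 fold change 2.37 ± 0.16 SE, adjusted p = 3.55e-09 by edgeR), and TAP1, a peptide transporter encoded next to it, at 19.2, 18.2 and 22.7 against 41.9, 33.97 and 41.99 (log2 fold change 0.97 ± 0.11 SE, adjusted p = 2.08e-06 by edgeR). The groups did not overlap for any of these. ERAP1, a peptidase that trims the peptides, was at 59.4, 51.7 and 51.9 against 104, 112 and 97.6 (log2 fold change 0.94 ± 0.07 SE, adjusted p = 1.46e-08 by edgeR), and HLA-F had means of 0.426 and 3.04. Genes of the HLA family share sequence, and their individual values are uncertain. The mCherry clones had HLA-B at 273 and 147, TAP1 at 32.3 and 38.4 and PSMB9 at 6.56 and 10.7 CPM, all above the LmnB1_6 mean.

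Cytokines showed larger differences at lower levels. IL1B, which encodes interleukin-1 beta, was at 0.642, 0.245 and 0.168 CPM in LmnB1_6 and 14.99, 16.4 and 23.998 in LmnB1_16 (log2 fold change 5.74 ± 0.38 SE, adjusted p = 3.96e-09 by edgeR). CXCL8, a neutrophil chemokine, was at 1.37, 1.18 and 1.14 against 14.6, 14.8 and 28.8 (log2 fold change 3.99 ± 0.34 SE, adjusted p = 8.09e-08 by edgeR), with LmnB1_16 replicate 3 the highest. CSF1, the macrophage growth factor, was at 16.6, 15.9 and 19.1 against 70.1, 66.6 and 76.4 (log2 fold change 2.04 ± 0.09 SE, adjusted p = 1.34e-11 by edgeR). IL1A and BIRC3, a cytokine and an inhibitor of cell death, had log2 fold changes of 2.83 and 2.95. Of 19 cytokines and NF-kB targets tested, of 28 listed, 14 were higher in LmnB1_16 and 0 in LmnB1_6 (median 1.58), beside 17.8% and 16.6% of all genes. Members near 0 in LmnB1_6 could pass the filter through LmnB1_16, so count and median are descriptions and no test.

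Interferon-stimulated genes were mixed. Of 35 tested, of 38 listed, 20 were higher in LmnB1_16 and 6 in LmnB1_6 (median 0.45), beside 17.8% and 16.6% of all genes. OAS1, a sensor of double-stranded RNA, had 0 counts in LmnB1_6 and was at 2.63, 2.21 and 3.26 CPM in LmnB1_16 (at least 66-fold, edgeR adjusted p = 2.95e-08). SAMD9L, a restriction factor, was at 2.74, 1.72 and 2.68 against 19.9, 19.02 and 19.8 (log2 fold change 3.02 ± 0.14 SE, adjusted p = 4.93e-11 by edgeR). IRF7, the transcription factor that amplifies interferon production, went the other way, at 6.08, 6.72 and 5.97 CPM in LmnB1_6 with 2 counts over the LmnB1_16 libraries (edgeR adjusted p = 4.20e-10). GBP2, a guanylate-binding protein, was at 9.97, 10.5 and 14.8 against 2.97, 4.03 and 4.51 (log2 fold change -1.61 ± 0.21 SE, adjusted p = 1.24e-05 by edgeR). Each lamin B1 clone was at or near 0 for an interferon-related gene that the 3 other clones had, OAS1 in LmnB1_6 and IRF7 in LmnB1_16, with OAS1 at 2.76 and 2.69 and IRF7 at 7.48 and 4.54 CPM in mCherry_3 and mCherry_4. Of the leukocyte markers only CD68, a lysosomal protein that many cell types make, and CSF1R passed the filter. Their summed list was at 43.6 to 46.9 CPM in LmnB1_6 and 75.6 to 81.3 in LmnB1_16, with CD68 at 42.3 and 74.05, while CD3E and NKG7 were at or near 0 in both.

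**Figure D3:**
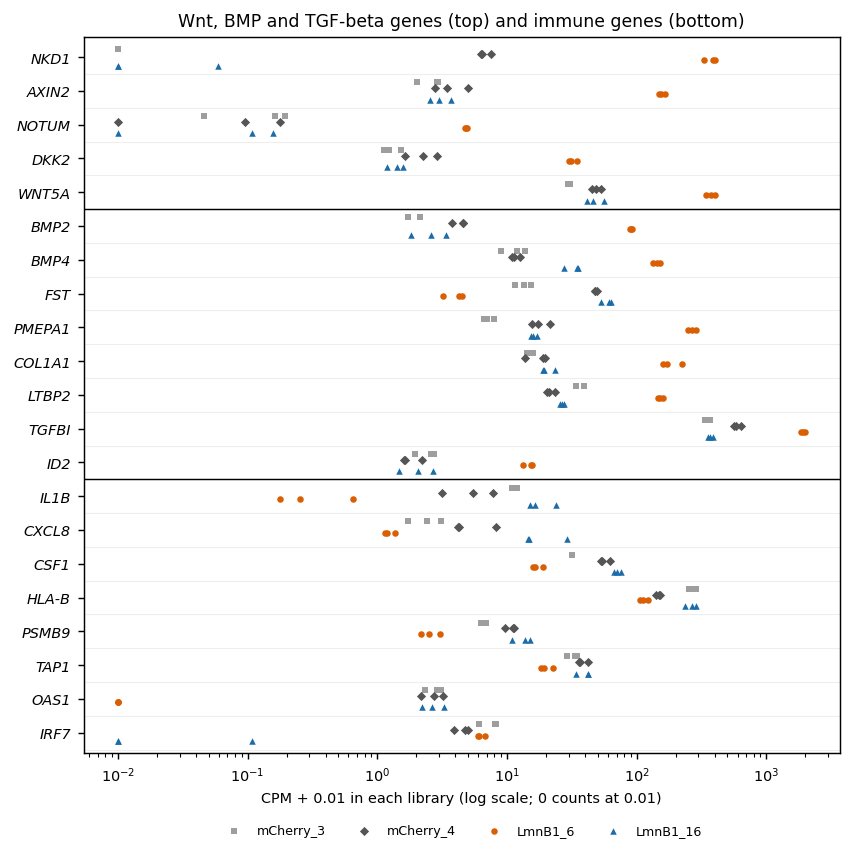
Level in each of the 12 libraries (x axis, CPM + 0.01 on a log scale, 0 counts at 0.01) of 5 Wnt genes, 8 genes of the TGF-beta family and 8 immune genes, with 1 row per gene and 1 marker per library in the colour of its clone. In the upper blocks LmnB1_6 stands to the right of the 3 other clones in every row but FST, which is lowest in it. In the lower block LmnB1_6 is the lowest clone in every row but IRF7.

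Growth factor genes were called in both directions. VEGFA, the vascular growth factor, was at 22.9, 21.98 and 27.6 CPM in LmnB1_6 and 207, 153 and 163 in LmnB1_16 (log2 fold change 2.84 ± 0.13 SE, adjusted p = 2.29e-11 by edgeR). TGFA, a ligand of the EGF receptor, was at 0.171, 0.147 and 0.101 against 11.8, 9.98 and 11.9 (log2 fold change 6.31 ± 0.22 SE, adjusted p = 1.36e-12 by edgeR), and PDGFB, a platelet-derived growth factor, was higher in LmnB1_6 at 16.1, 16.1 and 22.2 against 2.48, 1.67 and 2.23 (log2 fold change -3.09 ± 0.18 SE, adjusted p = 9.63e-10 by edgeR). Of 33 growth factors and receptors tested, of 40 listed, 18 were higher in LmnB1_16 and 7 in LmnB1_6 (median 0.38), beside 17.8% and 16.6% of all genes. Of 26 ERK feedback and immediate early genes tested, 9 were higher in LmnB1_16 and 2 in LmnB1_6 (median 0.15): DUSP4, a phosphatase, was at 26.3, 23.3 and 35.7 against 101, 81.8 and 119.7 (log2 fold change 1.82 ± 0.16 SE, adjusted p = 1.18e-07 by edgeR), and IL17RD, an inhibitor of growth factor signalling, at 207, 180.01 and 193 against 13.7, 15.6 and 13.8 (log2 fold change -3.75 ± 0.08 SE, adjusted p = 4.30e-15 by edgeR). FOSL1, an AP-1 subunit, had means of 219.6 and 426.

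Genes of the plasminogen system differed at high levels. PLAT, the tissue plasminogen activator, was at 143, 149 and 155 CPM in LmnB1_6 and 2077, 1922 and 1832 in LmnB1_16 (log2 fold change 3.71 ± 0.07 SE, adjusted p = 9.32e-16 by edgeR). PLAU, the urokinase, was at 57.1, 62.02 and 50.3 against 457, 362 and 370.5 (log2 fold change 2.81 ± 0.11 SE, adjusted p = 4.86e-12 by edgeR), and SERPINB2, an inhibitor of both, at 7.32, 10.2 and 8.96 against 306, 292 and 313 (log2 fold change 5.11 ± 0.09 SE, adjusted p = 9.32e-16 by edgeR). Activators and inhibitor were higher in every LmnB1_16 library. PLAT was at 873 and 876 CPM in the mCherry clones, between the lamin B1 clones. The metalloproteinase MMP24 went the other way, with means of 7.77 CPM in LmnB1_6 and 0.473 in LmnB1_16. Of 25 proteases and inhibitors tested, of 33 listed, 14 were higher in LmnB1_16 and 6 in LmnB1_6 (median 0.53).

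The basement membrane, the sheet under an epithelium, is built of collagen IV, laminins and nidogens. Of 21 of its genes tested, of 26 listed, 13 were higher in LmnB1_16 and 6 in LmnB1_6 (median 0.51). Collagen IV was divided by gene pair, as a look at the whole family after its values were seen showed: COL4A3, COL4A4, COL4A5 and COL4A6 were at 0.0143, 0.274, 0 and 0.0143 CPM in LmnB1_6 and 1.68, 11.2, 44.5 and 1.94 in LmnB1_16. COL4A1 and COL4A2, which form the most widespread collagen IV, were instead modestly higher in LmnB1_6, with log2 fold changes of -0.66 and -0.64. In mCherry_3 and mCherry_4 COL4A4 was at 21.5 and 6.49 CPM. The laminin chains LAMA3 and LAMB3 had log2 fold changes of 1.93 and 1.45, and were also chosen after their values were seen. LAMA4, a laminin chain of vessels and muscle, was at 19.9, 21.4 and 16.8 against 84.8, 84.5 and 84.3 (log2 fold change 2.13 ± 0.13 SE, adjusted p = 8.29e-10 by edgeR), and NTN4, the laminin-related netrin-4, at 40.998, 46.5 and 42.1 against 213, 215 and 210.5 (log2 fold change 2.30 ± 0.06 SE, adjusted p = 4.20e-14 by edgeR). COL18A1, the precursor of endostatin, was higher in LmnB1_6, at 63.04, 52.3 and 63.2 against 14.5, 15.98 and 13.7 (log2 fold change -2.02 ± 0.10 SE, adjusted p = 1.01e-10 by edgeR).

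Interstitial matrix genes went both ways. Of 22 genes of fibrillar collagens, fibronectin and elastic fibres tested, of 37 listed, 9 were higher in LmnB1_16 and 8 in LmnB1_6 (median 0.17). THBS1, the matricellular protein thrombospondin-1, was at 274, 288 and 249 CPM in LmnB1_6 and 1783, 2391 and 1520.5 in LmnB1_16 (log2 fold change 2.81 ± 0.16 SE, adjusted p = 4.60e-10 by edgeR), and EFEMP1, a fibulin of elastic fibres, at 3.98, 4.37 and 3.83 against 93.4, 96.99 and 97.9 (log2 fold change 4.57 ± 0.10 SE, adjusted p = 3.50e-15 by edgeR). COL6A1, a chain of collagen VI, was higher in LmnB1_6, at 26.9, 26.4 and 34.3 against 3.99, 3.74 and 4.43 (log2 fold change -2.84 ± 0.15 SE, adjusted p = 1.66e-10 by edgeR). Of 18 proteoglycan and hyaluronan genes tested, of 29 listed, 7 were higher in LmnB1_16 and 9 in LmnB1_6 (median -0.11). VCAN, the large proteoglycan versican, was at 3098, 2660.3 and 2866 against 1070.3, 1385 and 974 (log2 fold change -1.33 ± 0.11 SE, adjusted p = 9.15e-08 by edgeR), and HAS2, the hyaluronan synthase, at 20.6, 20.4 and 20.4 against 1.8003, 1.47 and 2.49 (log2 fold change -3.39 ± 0.20 SE, adjusted p = 7.54e-10 by edgeR). SULF1, an enzyme that edits heparan sulfate, was at 3.08, 2.06 and 3.22 CPM in LmnB1_6 and had 0 counts in LmnB1_16 (at least 63-fold).

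Of 31 integrin and actin cytoskeleton genes tested, 12 were higher in LmnB1_16 and 11 in LmnB1_6 (median -0.06). ITGA11, the integrin subunit that binds fibrillar collagen, was at 1.198, 0.834 and 1.61 CPM in LmnB1_6 and 96.8, 111 and 84.2 in LmnB1_16 (log2 fold change 6.27 ± 0.16 SE, adjusted p = 2.27e-14 by edgeR), with 96.7 and 80.5 in mCherry_3 and mCherry_4. ITGB4, the subunit of hemidesmosomes, was at 18.3, 13.6 and 16.5 against 2.43, 2.26 and 2.86 (log2 fold change -2.67 ± 0.15 SE, adjusted p = 5.52e-10 by edgeR). SNAI2, a transcription factor of epithelial-mesenchymal transition, was at 43.9, 39.2 and 37.7 against 2.29, 2.56 and 2.89 (log2 fold change -3.95 ± 0.16 SE, adjusted p = 1.14e-11 by edgeR), and CDH6, a classical cadherin, at 13.4, 12.3 and 11.7 against 53.96, 73.9 and 62.2 (log2 fold change 2.35 ± 0.12 SE, adjusted p = 1.99e-10 by edgeR). The desmosomal gene PKP2 was higher in LmnB1_6, at 154, 176 and 159 against 35.7, 35.5 and 31.2 (log2 fold change -2.26 ± 0.11 SE, adjusted p = 8.38e-11 by edgeR). The fibroblast and pericyte markers were called in both directions: of 7 tested, of 9 listed, 4 were higher in LmnB1_16 and 2 in LmnB1_6 (median 0.89). THY1, FAP and PDGFRA were at means of 118, 33.99 and 0.668 CPM in LmnB1_6 and 278, 63.2 and 4.34 in LmnB1_16, while COL1A1 and RGS5, which overlaps an antisense gene, were at 186 and 18.6 against 20.5 and 5.57. The summed level of the 9 markers was 372 to 447 CPM in LmnB1_6 and 395.5 to 438 in LmnB1_16, and these ranges overlapped. Of 23 transition factors, cadherins and intermediate filaments tested, of 32 listed, 8 were higher in LmnB1_16 and 9 in LmnB1_6 (median 0.00).

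Genes of neuronal contact and guidance were called in both directions. Of 35 axon guidance genes tested, of 44 listed, 13 were higher in LmnB1_16 and 11 in LmnB1_6 (median 0.07). Beside PLXNA4, the ligand gene SEMA3D was at 0.128, 0.0491 and 0.101 CPM in LmnB1_6 and 8.81, 8.7997 and 7.03 in LmnB1_16 (log2 fold change 6.36 ± 0.32 SE, adjusted p = 1.04e-10 by edgeR), SEMA3F at 52.3, 48.6 and 47.3 against 172, 142 and 174 (log2 fold change 1.72 ± 0.10 SE, adjusted p = 4.43e-10 by edgeR), and the netrin receptor gene UNC5C at 2.48, 2.65 and 3.52 against 0.0973, 0.147 and 0.1099 (log2 fold change -4.56 ± 0.42 SE, adjusted p = 2.33e-07 by edgeR). Both semaphorin genes were higher in every LmnB1_16 library, and UNC5C in every LmnB1_6 library. SNAP25, a protein of synaptic vesicle fusion, was at 15.5, 16.8 and 17.9 against 1.46, 1.23 and 1.17 (log2 fold change -3.70 ± 0.24 SE, adjusted p = 3.03e-09 by edgeR), and TUBB3, a neuronal tubulin, at 476, 445 and 456 against 269.6, 255 and 285 (log2 fold change -0.77 ± 0.06 SE, adjusted p = 4.82e-08 by edgeR). MAP2, a microtubule protein of dendrites, went the other way, at 29.8, 25.8 and 24.3 against 42.9, 43.8 and 42.98 (log2 fold change 0.70 ± 0.09 SE, adjusted p = 6.89e-06 by edgeR). Of 13 neuronal genes tested, of 30 listed, 7 were higher in LmnB1_16 and 3 in LmnB1_6 (median 0.31). The neuronal marker list summed to 555 to 594 CPM in LmnB1_6 and 331 to 359.8 in LmnB1_16, most of it TUBB3, with NEFL at 0 in both. Of 28 clustered protocadherins tested, of 52 listed, 4 were higher in LmnB1_16 and 14 in LmnB1_6 (median -0.75). PCDHGA11 was at 0.428, 0.638 and 0.873 against 55.3, 53.8 and 54.1 and PCDHB16 at 5.18, 6.08 and 6.07 against 0.341, 0.393 and 0.366 CPM. Genes of these clusters share sequence, and their individual values are uncertain.

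Lists of the lamina, chromatin and the cell cycle had medians from -0.13 to 0.08. Over all genes 34.4% were called in either direction. The nuclear pore, Polycomb, heterochromatin and LINC lists had 20.7%, 26.7%, 30.4% and 33.3%, all below that share. The lamin and DNA methylation lists had 37.5% and 41.2%. Of 8 genes of lamins and prelamin processing tested, 1 were higher in LmnB1_16 and 2 in LmnB1_6 (median -0.13). Of 18 genes of the inner nuclear membrane and the LINC complex tested, 3 were higher in LmnB1_16 and 3 in LmnB1_6 (median 0.02), and of 29 nuclear pore genes, 4 were higher in LmnB1_16 and 2 in LmnB1_6 (median 0.04). SYNE1, the giant nesprin-1 that links the nucleus to actin, was at 51.6, 50.8 and 56.4 CPM in LmnB1_6 and 87.3, 112 and 81.7 in LmnB1_16 (log2 fold change 0.82 ± 0.12 SE, adjusted p = 3.26e-05 by edgeR). Of 23 heterochromatin genes, 3 were higher in LmnB1_16 and 4 in LmnB1_6 (median -0.05), among them KDM4B, a histone demethylase, at 68.6, 68.2 and 73.5 against 37.9, 40.6 and 36.9 (log2 fold change -0.87 ± 0.06 SE, adjusted p = 6.36e-09 by edgeR). Of 30 Polycomb genes, 0 were higher in LmnB1_16 and 8 in LmnB1_6 (median -0.07), and from the deposited TPM 3 were higher in LmnB1_6. JARID2, a cofactor of the Polycomb methyltransferase, was at 64.1, 62.9 and 60.9 against 37.6, 40.5 and 33.1 (log2 fold change -0.76 ± 0.08 SE, adjusted p = 1.74e-06 by edgeR), and CBX7, a reader subunit, at 11.9, 13.7 and 10.7 against 7.298, 6.59 and 7.62 (log2 fold change -0.75 ± 0.14 SE, adjusted p = 0.000429 by edgeR). Of 17 DNA methylation genes, 4 were higher in LmnB1_16 and 3 in LmnB1_6 (median -0.03).

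Of 34 replication genes tested, 6 were higher in LmnB1_16 and 3 in LmnB1_6 (median 0.08), and of 32 mitotic genes, 8 were higher in LmnB1_16 and 1 in LmnB1_6 (median 0.05). In either direction 26.5% and 28.1% of these lists were called, below the 34.4% over all genes. MCM6, of the replicative helicase, was at 114, 112 and 99.2 CPM in LmnB1_6 and 147, 166 and 147 in LmnB1_16 (log2 fold change 0.50 ± 0.07 SE, adjusted p = 2.39e-05 by edgeR), and TOP2A, topoisomerase II alpha, at 526, 498 and 487 against 633, 677 and 601 (log2 fold change 0.34 ± 0.05 SE, adjusted p = 0.000108 by edgeR). CCNE1, the cyclin E1 of entry into S phase, was higher in LmnB1_6, at 13.01, 12.6 and 12.6 against 8.42, 7.87 and 6.92 (log2 fold change -0.72 ± 0.11 SE, adjusted p = 4.64e-05 by edgeR). Of 26 p53 targets tested, of 27 listed, 2 were higher in LmnB1_16 and 15 in LmnB1_6 (median -0.38), beside 17.8% and 16.6% of all genes. BBC3 and PMAIP1, the cell death proteins PUMA and NOXA, were at 9.46, 9.57 and 14.8 and 78.1, 78.1 and 74.3 in LmnB1_6 and 3.503, 2.802 and 4.21 and 38.4, 39.9 and 46.02 in LmnB1_16 (log2 fold changes -1.68 and -0.89). DDB2, of DNA repair, was at 7.32, 6.62 and 6.11 against 3.02, 2.802 and 2.97 (log2 fold change -1.19 ± 0.16 SE, adjusted p = 1.89e-05 by edgeR). The cell cycle brake CDKN1B was higher in LmnB1_16, at 55.4, 61.4 and 61.3 against 101, 86.3 and 103 (log2 fold change 0.70 ± 0.07 SE, adjusted p = 6.81e-07 by edgeR). CDKN1C, an imprinted brake of the same family, had means of 1.95 and 0.0855 CPM.

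Metabolic lists had medians from -0.16 to 0.16. Called in either direction were 53.3% of the glycolysis, 38.7% of the cholesterol and 34.6% of the unfolded protein genes. The ribosomal and nuclear respiratory lists had 39.1% and 8.6%, beside 34.4% over all genes. HK2, a hexokinase, was at 19.8, 24.97 and 25.4 CPM in LmnB1_6 and 71.2, 82.8 and 74.5 in LmnB1_16 (log2 fold change 1.70 ± 0.09 SE, adjusted p = 2.14e-10 by edgeR), and SLC2A1, the glucose transporter GLUT1, at 202, 199 and 195 against 533, 528 and 479 (log2 fold change 1.37 ± 0.07 SE, adjusted p = 9.51e-11 by edgeR). The glycolysis and hypoxia list as a whole went both ways, since of 30 tested 5 were higher in LmnB1_16 and 11 in LmnB1_6 (median -0.09). Of 31 cholesterol and fatty acid genes 10 were higher in LmnB1_16 and 2 in LmnB1_6 (median 0.06). HSPA5, the chaperone BiP, was at 762, 730.4 and 753 against 1097, 1119.9 and 1150.3 (log2 fold change 0.58 ± 0.06 SE, adjusted p = 5.19e-07 by edgeR), and of 26 genes of the unfolded protein response 8 were higher in LmnB1_16 and 1 in LmnB1_6 (median 0.16). Of 64 cytosolic ribosomal protein genes 0 were higher in LmnB1_16 and 25 in LmnB1_6 (median -0.16). That count rested on single libraries, since it was 42 without LmnB1_16 replicate 1, 12 without LmnB1_16 replicate 2, 11 without LmnB1_6 replicate 1, 12 without LmnB1_6 replicate 2 and 14 in a fit of the 6 lamin B1 libraries alone. None of the 13 mitochondrially encoded respiratory genes was called by edgeR (1 at an unadjusted p under 0.05) or by DESeq2, and of 35 nuclear ones 0 were higher in LmnB1_16 and 3 in LmnB1_6, which became 1 without LmnB1_6 replicate 1 or 2 and 7 without LmnB1_16 replicate 1.

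**Figure D4:**
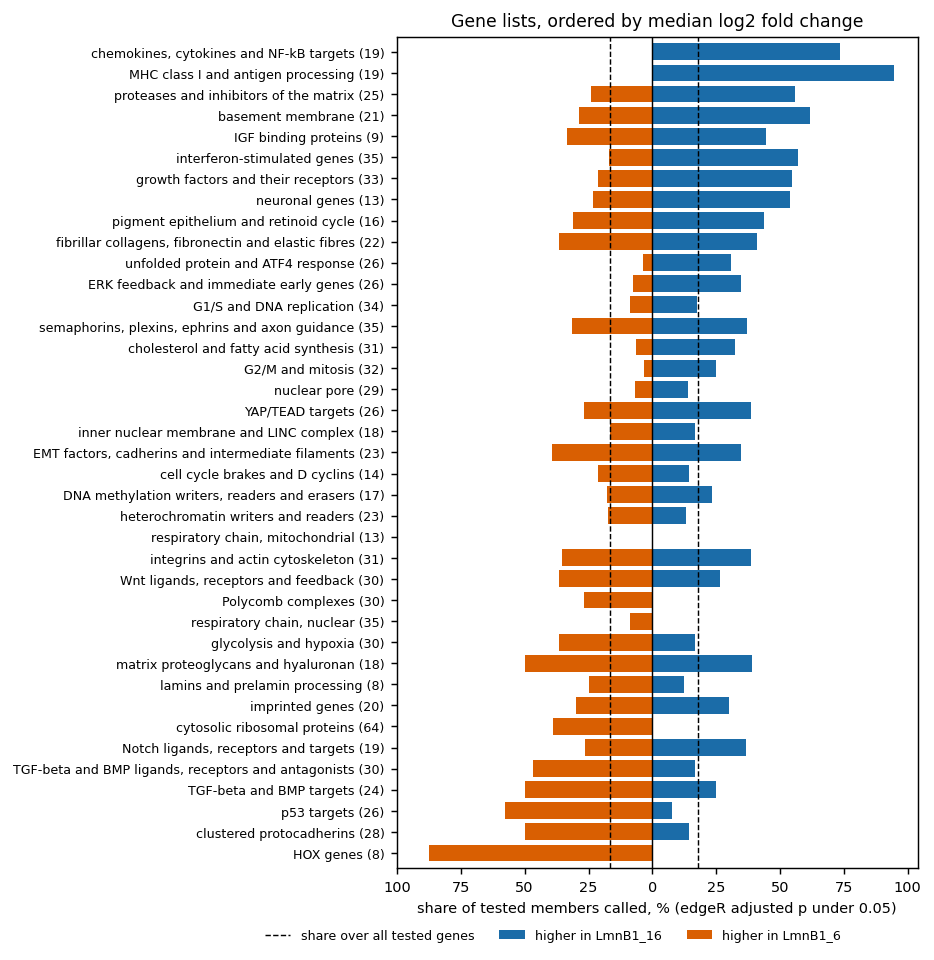
Share of the tested members of each gene list called higher in LmnB1_16 (blue, to the right) and in LmnB1_6 (orange, to the left), in %, for lists with at least 8 tested members, ordered by median log2 fold change, with the number tested in brackets. Dashed lines mark the shares over all tested genes, 17.8% and 16.6%. The cytokine and MHC class I lists have calls on the right side only, and the HOX list on the left only.

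Differences were spread over the genome, and chromosome 19 had the lowest median. The median log2 fold change of the genes of a chromosome lay between -0.06 and 0.07 for 22 chromosomes, and at -0.14 for chromosome 19, where 70 of 1058 genes were higher in LmnB1_16 and 269 in LmnB1_6. Its median varied between the libraries with an SD of 0.0684, more than that of any other chromosome, and it was -0.13 for its 684 genes at 5 CPM or more. Without LmnB1_16 replicate 2 it was -0.11, and without LmnB1_16 replicate 1 or 3 it was -0.16. From the deposited TPM it was -0.093 and -0.10 (pseudocounts 0.5 and 0.1). In those fits the median over all tested genes was 0.0476 and 0.0523, against 0.0014 in the main fit, so the TPM values are not on the same zero. Chromosomes 16, 17, 20 and 22 had medians from -0.06 to -0.034, and chromosomes 1, 12, 13 and X medians from -0.027 to -0.002. Chromosomes 2, 4, 6, 10 and 21 had medians above 0.05. The zinc finger genes for which chromosome 19 is known, chosen after these values were seen, had a median of -0.17 over 219 genes (3 higher in LmnB1_16, 41 in LmnB1_6). The other 839 genes of the chromosome had a median of -0.14 (67 and 228), and 244 zinc finger genes elsewhere one of -0.06 (14 and 34).

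**Figure D5:**
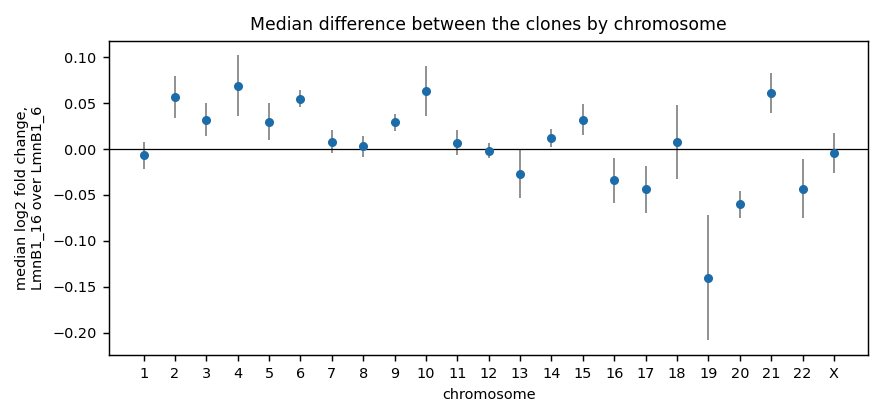
Median log2 fold change of LmnB1_16 over LmnB1_6 for the tested genes of each chromosome (points), with the SD of the libraries' medians, combined over both clones (bars). Chromosome 19 lies at -0.14 and the others between -0.06 and 0.07.

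The effective length of a gene, the mean length of its transcripts weighted by their estimated abundance, gives a view of which transcripts are used. No gene of 10254 with at least 100 counts in each of the 6 libraries was called as 25% or more longer in either clone by limma (0.0%), with 609 at an unadjusted p under 0.05. The smallest adjusted p, 0.110, belonged to NRG1, which encodes the growth factor neuregulin-1. Its effective length was 1264, 1154 and 1243 bases in LmnB1_6 and 2508, 2574 and 2294 in LmnB1_16. HMCN1, the matrix protein hemicentin-1, had 9541, 7661 and 10661 and 14904, 18101 and 15322 bases (limma adjusted p = 0.592), and EVC, a ciliary protein, 3391, 3914 and 3800 and 2198, 2552 and 1892 (limma adjusted p = 0.528).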

How the data were processed

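The authors deposited a gene-level quantification of each library that holds effective length, TPM and estimated counts (per the file headers). STAR, Salmon and DESeq2 are named without versions in the submitters' processing notes, as is GRCh38 (hg38). Neither strand setting nor annotation release is given in the sources used. The authors' deposited estimated counts carry no normalization, and 26.6% to 27.8% of the genes detected in a lamin B1 library had a count further than 0.001 from a whole number, so counts were rounded. The authors' deposited TPM account for effective length and served as an alternative. The effective lengths that the authors deposited, another unit in bases, were compared with limma 3.58.1. Of 60708 Ensembl identifiers 58396 matched GENCODE 29, which gave the positions.

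Genes were kept by filterByExpr with the 4 clones as groups (minimum count 10, minimum total 15) over all 12 libraries, scaled with TMM factors and fitted in R 4.3.3 by the quasi-likelihood functions of edgeR 4.0.16 (glmQLFit, glmQLFTest). Each SE was obtained by dividing the log2 fold change by the root of its F statistic. All 12 libraries shared 1 estimate of the spread. Alternatives were DESeq2 1.42.0 and its size factors, no filter, a filter of 1 CPM, the lamin B1 libraries alone, a replicate block, each lamin B1 library left out, and limma on log2(TPM + 0.5) or log2(TPM + 0.1). No pair of libraries of a clone matched within sampling noise (chi-square per degree of freedom 3.85 or more). The script was tested on simulated data. The members, the gene lists and the rules were chosen with earlier results of these data known. Named genes are LMNB1, LMNA, LMNB2 and LBR, and the 15 called protein-coding genes furthest up and the 15 furthest down at a mean of 5 CPM. Added to these are up to 5 called members per list at 1 CPM and the tested HOX genes. The last are 6 genes each way on in 1 lamin B1 clone and off in the other, and 4 effective length ratios each way. Some genes that the rules take are left out for length, and a few are not reported here.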

Additional observations from a re-analysis of the deposited data

How the results depend on the processing

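Of 221 genes the rules name beside LMNB1, 189 kept their direction and their side of the threshold under every alternative that gave a value. The 5289 calls became 5299 with DESeq2's size factors, 5384 with DESeq2, 5522 of 27464 genes with no filter, 5095 at 1 CPM, 4626 with the lamin B1 libraries alone, and 4119 and 4124 from TPM with pseudocounts of 0.5 and 0.1. Leaving out 1 lamin B1 library gave 4521 to 5010 calls, with 2368 to 2674 higher in LmnB1_16, 2153 to 2386 higher in LmnB1_6, 1576 to 1633 of them 2-fold, and 5533 to 6227 between the mCherry clones. From TPM the genes higher in LmnB1_6 fell from 2555 to 1665 and 1644 (pseudocounts 0.5 and 0.1). Those higher in LmnB1_16 made up 59.58% and 60.14% of the calls, against 51.69%. The median log2 fold change over all genes was 0.0476 and 0.0523 in these fits, against 0.0014, and the cause was not tested. LMNB1 kept its direction in every fit (log2 fold change -0.30 to -0.18 with 1 library left out) but was not called from TPM (-0.20 with either pseudocount) or without LmnB1_6 replicate 2 (-0.21) or LmnB1_16 replicate 3 (-0.18). With 1 library left out, signs turned for LBR (-0.0060 to 0.061, below 0 without LmnB1_16 replicate 1), MT-CO1 (-0.041 to 0.037, below 0 without LmnB1_6 replicate 3 or LmnB1_16 replicate 2) and MT-ND4 (-0.131 to 0.0300, above 0 without LmnB1_16 replicate 3), none of them called. The effective length comparison had 0 calls in each fit run.

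With the replicate number as a replicate block 5391 genes were called. Deviations of same-numbered libraries correlated at 0.0372, 0.0343 and 0.1221, so the numbers were not taken to pair the libraries. Between the lamin B1 clones, the genes on in LmnB1_16 and off in LmnB1_6, and the reverse, numbered 75 and 53. With 1 library left out they numbered 75 to 83 and 54 to 61. With under 0.5 CPM as off and 5 CPM as on they were 54 and 30. The counts of switched genes without single libraries and the list counts under each alternative were added after seeing the data. At 20.6 to 29.5 M counts, 3 counts over a clone's libraries correspond to 0.0408 CPM in LmnB1_6 and 0.0440 in LmnB1_16, which bounds what 0 counts can show.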

Other observations

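Several gene groups not yet described divided the clones without a common direction. Of 26 YAP/TEAD targets tested, of 26 listed, 10 were higher in LmnB1_16 and 7 in LmnB1_6 (median 0.03): F3, which encodes tissue factor, was at 84.8, 99.5 and 100.5 CPM in LmnB1_6 and 263, 251 and 211 in LmnB1_16 (log2 fold change 1.35 ± 0.14 SE, adjusted p = 1.09e-06 by edgeR), and ANKRD1, a nuclear repressor of muscle genes, at 153, 191 and 199 against 376, 383 and 381 (log2 fold change 1.07 ± 0.15 SE, adjusted p = 2.45e-05 by edgeR). FOXF2, a forkhead factor, was higher in LmnB1_6, at 21.1, 22.5 and 23.7 against 10.8, 10.2 and 12.2 (log2 fold change -1.02 ± 0.11 SE, adjusted p = 1.07e-06 by edgeR). The Notch ligand JAG1 was at 11.1, 13.1 and 17.2 CPM in LmnB1_6 and 51.5, 47.8 and 58.5 in LmnB1_16, and its target HES1 at 2.35, 1.96 and 1.34 against 4.67, 3.64 and 5.42 (log2 fold changes 1.92 and 1.29). Of 19 Notch genes tested, of 24 listed, 7 were higher in LmnB1_16 and 5 in LmnB1_6 (median -0.17). Of 9 IGF binding proteins and their regulators tested, of 12 listed, 4 were higher in LmnB1_16 and 3 in LmnB1_6 (median 0.47). Among them PAPPA, the protease that frees IGF from its binding proteins, was at 55.1, 52.9 and 56.8 against 10.7, 12.7 and 9.71 (log2 fold change -2.32 ± 0.11 SE, adjusted p = 8.25e-11 by edgeR), and STC2, an inhibitor of that protease, at 464, 524 and 499.96 against 1107, 1047 and 1024 (log2 fold change 1.09 ± 0.06 SE, adjusted p = 1.25e-10 by edgeR). The protease was higher in LmnB1_6 and its inhibitor in LmnB1_16. Of 20 imprinted genes tested, of 30 listed, 6 were higher in LmnB1_16 and 6 in LmnB1_6 (median -0.16), with PEG10, a retrotransposon-derived gene, at 81.1, 78.4 and 72.3 against 163, 202 and 156 and the noncoding MEG3 at 234, 245 and 321 against 136, 105 and 134 CPM. TNNT1, a slow muscle troponin, was at 24.6, 30.2 and 33.7 against 94.2, 80.4 and 91.1 CPM (log2 fold change 1.58 ± 0.10 SE, adjusted p = 1.89e-09 by edgeR), while the muscle regulators MYOD1 and MYOG were at 0 in all 4 clones. Of 3 muscle markers tested, of 8 listed, 1 was higher in LmnB1_16 and 0 in LmnB1_6 (median -0.62), beside 17.8% and 16.6% of all genes. The others tested, DES and MYH11, were not called and lay lower in LmnB1_16. Their means were 0.594 and 0.665 CPM in LmnB1_6 and 0.273 and 0.437 in LmnB1_16.

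Some called genes lay side by side, a pattern chosen after the values were seen and given with no test. Neighbours were counted among the tested genes with a mean of at least 1 CPM over the 6 lamin B1 libraries, and genes below that were skipped. Counted so, 43 runs of 5 or more consecutive genes were called in the same direction, 27 of them higher in LmnB1_16 and 16 higher in LmnB1_6. The longest held 7 genes, and there were 7 such runs. One, higher in LmnB1_6 (median log2 fold change -2.25), held KRT10, KRT33B, KRT34 and KRT15 with neighbouring keratin-associated genes on chromosome 17, 40818117 to 41522529. Another, higher in LmnB1_16 (median 0.87), ran from TFPI2, an inhibitor of proteases, through SGCE and PEG10 to PPP1R9A on chromosome 7, 93885396 to 95296415. A run of 6 on chromosome 6, 32821833 to 32981505, held TAP2, PSMB8, PSMB9 and TAP1 (median 0.85). A run of 6 on chromosome 2, 112641832 to 113209396, held IL1A and IL1B (median 1.18).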
